A study of Mus musculus with 12 samples.

Results

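The hypothalamus of mice with obesity (Ob) was compared with that of control mice (C) in 6 of the 12 RNA-seq libraries of the series, 3 per group, which were chosen by their labels. All mice were male C57BL/6 that entered the study at 8 weeks of age. C mice ate standard chow throughout. Ob mice were given a high-fat diet (HFD) with 60% of its energy from fat, for 8 weeks according to the labels. Both groups also received a vehicle gavage every day for 28 days from 16 weeks of age, and no drug. The labels start the gavage at week 8 of the diet, and the study's methods give the same start weeks, 8 for the HFD and 16 for the gavage. Its results instead place the treatment in the final part of an 8-week HFD, though they report body weight through week 12. The total length of the HFD is therefore not settled by these sources. The groups differ by the whole feed, and not by its fat alone. Each library was made from poly(A) RNA of a whole dissected hypothalamus, and the study's methods describe them as biological replicates.

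The hypothalamus holds the neurons that set feeding and energy use. In its arcuate nucleus, neurons that make Pomc, the precursor of melanocortins, and Cartpt act against feeding, whereas neurons that make Agrp and Npy promote it, and leptin from fat and insulin act on both. An HFD is known to be followed by inflammatory signaling in this region, carried by microglia, astrocytes and cytokines. Interferons induce, in most cell types, genes of antiviral defense and of major histocompatibility complex (MHC) class I, the system that displays peptides of the cell's own proteins at its surface.

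Counted reads ran from 17575625 to 23470800 per library in C and from 15655156 to 19407694 in Ob. C replicate 2 and Ob replicate 1 stood apart from the other libraries: reads were found in 25979 and 26123 genes there, against 29175 to 36541 in the others, and genes with exactly 1 read numbered 637 and 617, against 1189 to 5529. These 2 libraries also had the lowest mean correlation with the other 5 (0.941 and 0.937, the others 0.952 to 0.962) and lay at the ends of the first principal component, which held 45.3% of the variance. Libraries of one group did not resemble each other more than libraries of different groups, with a mean correlation across genes of 0.952 ± 0.0144 (SD, 6 pairs) within groups and 0.952 ± 0.0195 (SD, 9 pairs) between them. The labelled tissue was checked by transcription factors of hypothalamic neurons. Otp had 53.4 to 92.6 CPM (reads relative to the library's total, with TMM scaling, which evens out library composition, here and below), Nkx2-1 35.0 to 51.1, Sim1 8.44 to 13.5 and Nr5a1 10.4 to 21.4, so that all 4 were present in every library. Single libraries weigh heavily on the values below, which was checked for 133 genes named there. With 1 library left out, the log2 fold change of 89 of the 133 turned or shrank by more than 1.5 times. Without C replicate 2 and Ob replicate 1 that of 51 of 132 did. The main of these values are given beside the results.

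No gene was called in Ob vs. C. Of 30356 genes with at least 10 reads in total, edgeR's quasi-likelihood test gave 0 (0%) that met both an adjusted p below 0.05 and the minimum log2 fold change (log2FC) of 1, up or down, and the smallest adjusted p was 0.846. At an unadjusted p under 0.05 stood 1273 genes (4.19%), of which 670 (2.21% of those tested) were higher and 603 (1.99%) lower in Ob. All Ob libraries lay above all C libraries in 1276 genes (4.2%) and below them in 1223 (4.03%), which is called no overlap here. With 3 mice against 3, an exact permutation test of a single gene cannot go below a two-sided p of 0.1. DESeq2 also called 0 genes, with 513 higher and 601 lower at an unadjusted p under 0.05. With genes of at least 1 read in total, edgeR called 57, among them Pomc and Gabrb2, but 51 of these 57 had libraries that overlapped between the groups. The values below are therefore descriptions of these 6 mice: "higher" and "lower" give the direction of a log2FC, with its standard error (SE), and no single gene passed the test. The median log2FC was −0.01 over all genes tested and 0.01 over the 17656 genes with a mean of at least 1 CPM, of which 50.8% were higher in Ob.

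**Figure D1:**
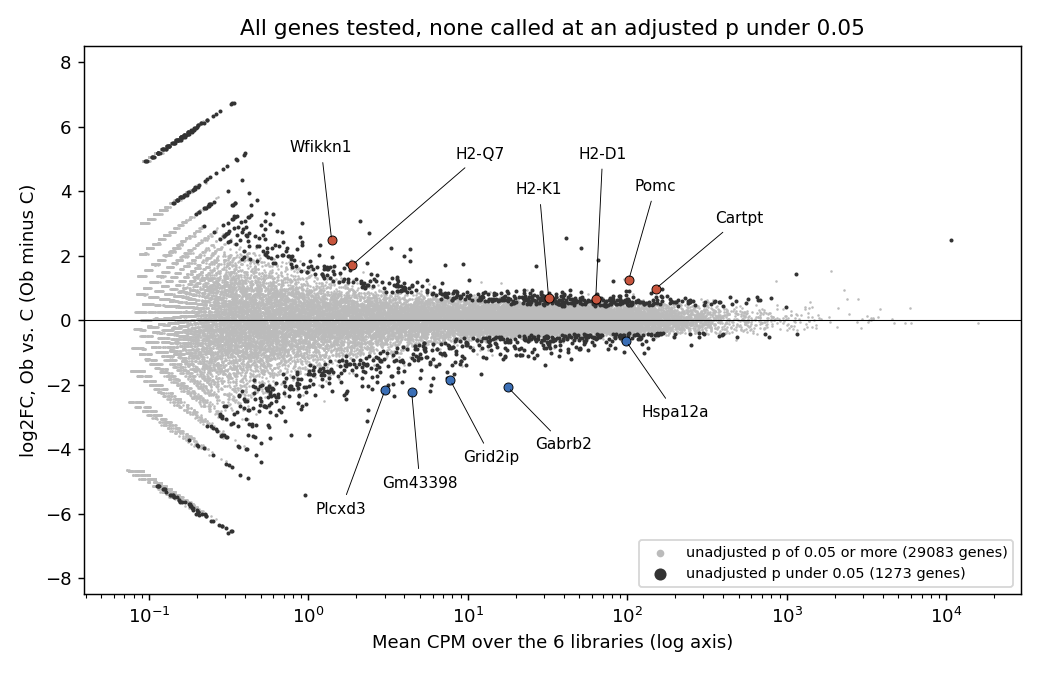
Log2FC in Ob vs. C (y axis) against the mean CPM over the 6 libraries (x axis, log scale) for the 30356 genes tested. Black points are the 1273 genes at an unadjusted p under 0.05, coloured points are 11 genes named in the text, and at low CPM the log2FC spreads widely with few reads.

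Genes of the interferon response and of MHC class I were the list with the highest median in Ob vs. C. Of 36 members, 32 were higher and 4 lower in Ob, and the median log2FC was 0.52. At an unadjusted p under 0.05 stood 11 members, all higher in Ob (30.6%, where 2.21% of all genes were higher at that p), and the libraries did not overlap for 13 members (36.1% against 4.2% of all genes), all higher. None passed the adjusted test. The 13 are mostly parts of antigen presentation: the class I heavy chains H2-K1, H2-D1, H2-Q7 and H2-Q4, their light chain B2m, Psmb8 of the immunoproteasome, the peptide transporter Tap1, its partner Tapbp and the class I activator Nlrc5. Among the others are Ifit1, an antiviral protein, and the transcription factors Irf1 and Irf7. Summed over the list, the level was 375, 336 and 400 CPM in C and 500, 578 and 450 CPM in Ob, so the groups did not overlap. In a whole hypothalamus, a difference in the number of cells of a type and one in the RNA per cell cannot be told apart.

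The region before the start of 3 of these genes is shown. H2-K1 and H2-D1 share a stretch there that matches 1 of the 2 motifs searched, and B2m matches the other. The sequences are the 250 bases before the gene start in RefSeq (GRCm38.p6), each read along the gene's own strand. Capitals mark matches, searched on both strands, to GGGGATTCC, a form of the NF-κB site, and to GAAANNGAA. The latter is a form of the core of the element bound by interferon regulatory factors. H2-K1 lies at chr17:34000348-34000597 (minus strand, the more upstream of 2 starts listed), H2-D1 at chr17:35262844-35263093 (plus strand) and B2m at chr2:122147437-122147686 (plus strand).
H2-K1: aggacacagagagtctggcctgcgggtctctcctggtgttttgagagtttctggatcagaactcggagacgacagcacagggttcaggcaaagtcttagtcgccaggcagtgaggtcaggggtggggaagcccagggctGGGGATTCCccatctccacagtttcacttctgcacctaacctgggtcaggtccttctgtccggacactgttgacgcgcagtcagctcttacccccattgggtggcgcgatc
H2-D1: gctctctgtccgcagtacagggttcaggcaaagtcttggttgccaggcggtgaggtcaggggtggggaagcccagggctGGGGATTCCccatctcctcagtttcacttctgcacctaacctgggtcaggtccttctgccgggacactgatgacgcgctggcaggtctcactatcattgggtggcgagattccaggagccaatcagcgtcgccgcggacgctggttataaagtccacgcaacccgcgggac
B2m: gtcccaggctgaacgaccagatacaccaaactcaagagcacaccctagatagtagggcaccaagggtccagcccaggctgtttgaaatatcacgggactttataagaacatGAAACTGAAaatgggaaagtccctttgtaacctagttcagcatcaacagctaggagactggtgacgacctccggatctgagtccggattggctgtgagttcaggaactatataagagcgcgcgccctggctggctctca

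Of the 36 members, 30 matched a promoter by symbol. GAAANNGAA was found before 15 of them (50.0%) and before 7.62% of the 14560 tested genes with a promoter. Among the 15 were B2m, Ifit1, Isg15, Stat2 and Cxcl10. The list was made of interferon and class I genes, so a raised share of this motif follows from its choice. It does not bear on Ob vs. C. GGGGATTCC was found before 3 of the 30 (H2-K1, H2-D1 and H2-Q7) and before 0.371% of the tested genes. The match started 111 bases before the start of H2-K1, 171 before that of H2-D1 and 139 before that of B2m. A match describes the letters only. Other forms of the NF-κB site and of the interferon element were not searched, so a promoter without a match may still hold one.

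B2m had 63.4, 48.4 and 58.6 CPM in the C libraries and 77.8, 80.2 and 75.7 CPM in the Ob libraries. All Ob values lay above all C values, and the means were 56.8 ± 7.68 and 77.9 ± 2.23 CPM (SD, n = 3 mice each), which gives a log2FC of 0.45 (SE 0.19). H2-K1 had 22.8, 27.4 and 23.8 CPM in C and 36.8, 47.1 and 34.6 CPM in Ob, a log2FC of 0.68 (SE 0.21). H2-D1 had 52.0, 43.0 and 51.9 CPM in C and 85.3, 89.2 and 58.6 CPM in Ob, a log2FC of 0.67 (SE 0.21). Both heavy chains present peptides on most nucleated cells, and both were higher in each Ob library than in any C library. H2-Q7, a nonclassical heavy chain, had 0.739, 1.26 and 0.695 CPM in C and 3.45, 3.34 and 1.76 CPM in Ob, a log2FC of 1.70 (SE 0.53). Heavy chain genes are near-identical copies of each other, and how reads with several alignments were counted is not stated, so the split of reads among them is uncertain. That does not touch B2m, Psmb8, Tap1 and Ifit1, which are not class I heavy chains. Psmb8 had 3.04, 2.90 and 3.38 CPM in C and 7.18, 4.32 and 5.47 CPM in Ob, a log2FC of 0.86 (SE 0.35). Ifit1 had 1.48, 0.929 and 3.80 CPM in C and 4.99, 5.81 and 4.62 CPM in Ob, a log2FC of 1.29 (SE 0.45).

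The classical antiviral members did not all share this. Isg15, a ubiquitin-like modifier, had a log2FC of 0.36 (SE 0.69), Mx1, an antiviral GTPase, one of −0.08 (SE 1.22), Stat2, a transcription factor of the interferon response, one of −0.10 (SE 0.23), and Ifit2, a relative of Ifit1, one of −0.36 (SE 0.28). On the log2 scale, the mean deviation of the members from their own mean over the 6 libraries was −0.18, −0.57 and −0.01 in C and −0.09, 0.67 and 0.19 in Ob, so that Ob replicate 2 was the highest, C replicate 2 the lowest, and Ob replicate 1 lay below C replicate 3. Without Ob replicate 2 the median fell to 0.23, with 25 of 36 members higher. With 1 library left out it ran up to 0.63, and without C replicate 2 and Ob replicate 1 it was 0.48, with 34 of 36 members higher and 2 at an unadjusted p under 0.05. Over 22 microglia genes the mean deviation was 0.04, −0.01 and 0.03 in C and −0.27, 0.09 and 0.13 in Ob, and summed levels ran from 456 to 506 CPM in C and from 449 to 517 CPM in Ob. Over 27 genes of blood vessels it was 0.10, −0.40 and −0.03 in C and 0.15, 0.12 and 0.06 in Ob, with 439 to 534 CPM in C and 514 to 569 CPM in Ob. No defining marker of these lists (Cx3cr1, P2ry12, Tmem119 and Csf1r; Cldn5 and Pecam1) was at 0 in any library, and the part of these cells in the interferon and MHC class I values was not tested.

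**Figure D2:**
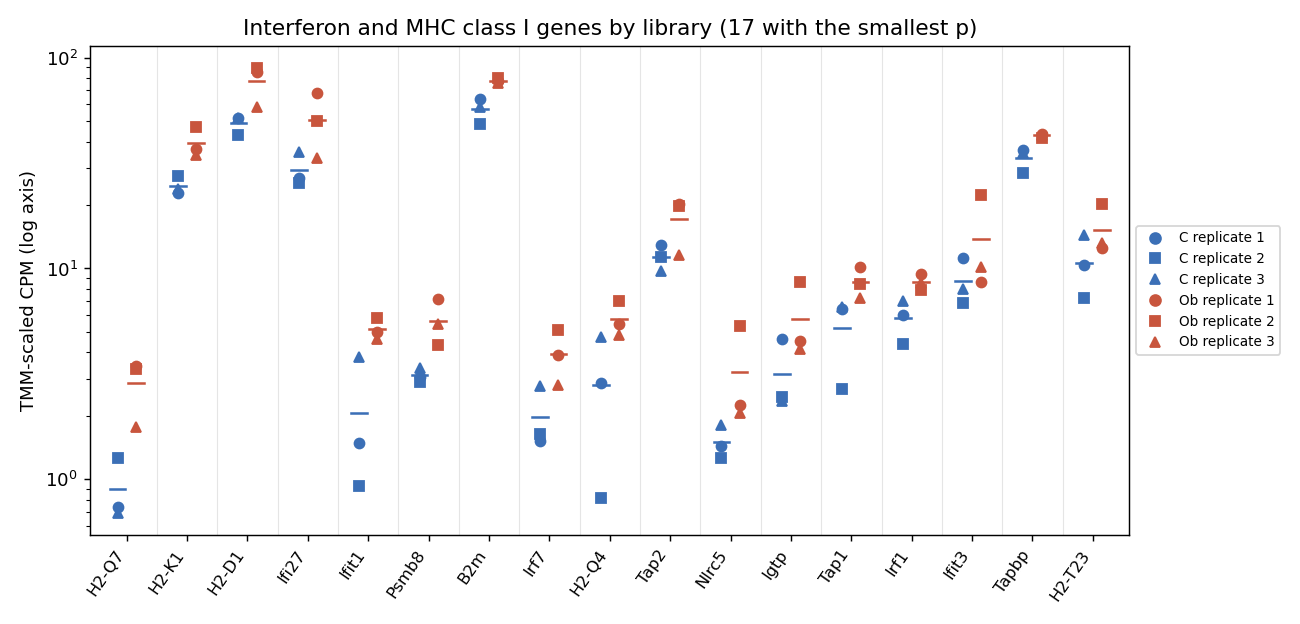
TMM-scaled CPM (y axis, log scale) of the 17 interferon and MHC class I genes with the smallest p, in the 3 C libraries (blue) and the 3 Ob libraries (red), with the group mean as a line. For H2-K1, H2-D1, B2m and Psmb8 every red point lies above every blue point, whereas C replicate 2 is below the other C libraries in H2-Q4 and Tap1.

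Among the 22 tested feeding peptides, 16 were higher and 6 lower in Ob (median log2FC 0.29). An unadjusted p under 0.05 was reached by 2 (9.09%, against 2.21% of all genes), both higher. The libraries did not overlap for 4 (18.2%, against 4.2% of all genes), all higher. The median was 0.03 without Ob replicate 1, 0.13 without Ob replicate 2 and 0.14 without C replicate 1. Pomc had 51.8, 59.6 and 70.3 CPM in C and 192, 172 and 66.9 CPM in Ob. Ob replicates 1 and 2 lay far above every C library and Ob replicate 3 within their range, and the means were 60.6 ± 9.25 and 143 ± 67.0 CPM (SD, n = 3 mice each), with a log2FC of 1.25 (SE 0.30). Cartpt, made by many of the same neurons, had 86.5, 97.4 and 121 CPM in C and 304, 192 and 102 CPM in Ob, a log2FC of 0.97 (SE 0.30). It showed the same split of the Ob libraries. With 1 library left out, Pomc ran from 0.98 to 1.59 and Cartpt from 0.54 to 1.29, and without C replicate 2 and Ob replicate 1 they were 0.97 and 0.50. The 3 Ob libraries themselves thus differed more in these genes than the C libraries did.

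Npy and Agrp, which promote feeding, did not follow. Npy had 23.6, 6.88 and 59.8 CPM in C and 31.7, 24.8 and 15.8 CPM in Ob, a log2FC of −0.33 (SE 0.49). The C libraries alone spanned a wider range than the Ob libraries. Agrp was close to the detection limit in every library but one, with 0.348, 2.02 and 0.324 CPM in C and 0.329, 0 and 0.182 CPM in Ob, so its log2FC of −2.23 (SE 1.11) rests on few reads. Hcrt (orexin), which promotes waking and feeding, had 21.5, 69.2 and 69.6 CPM in C and 59.7, 82.8 and 25.7 CPM in Ob, and Pmch, the precursor of melanin-concentrating hormone, 246, 221 and 352 CPM in C and 369, 363 and 183 CPM in Ob. Both were lowest or next to lowest in Ob replicate 3, the library in which Pomc and Cartpt were also the lowest of the Ob group. The 4 peptides whose libraries did not overlap were Penk (log2FC 0.29, SE 0.18), Tac2 (0.31, SE 0.22), Qrfp (0.76, SE 0.41) and Galp, which had 1 read in all C libraries together. Penk encodes enkephalins, Tac2 neurokinin B, and Qrfp and Galp are hypothalamic peptides that act on feeding.

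**Figure D3:**
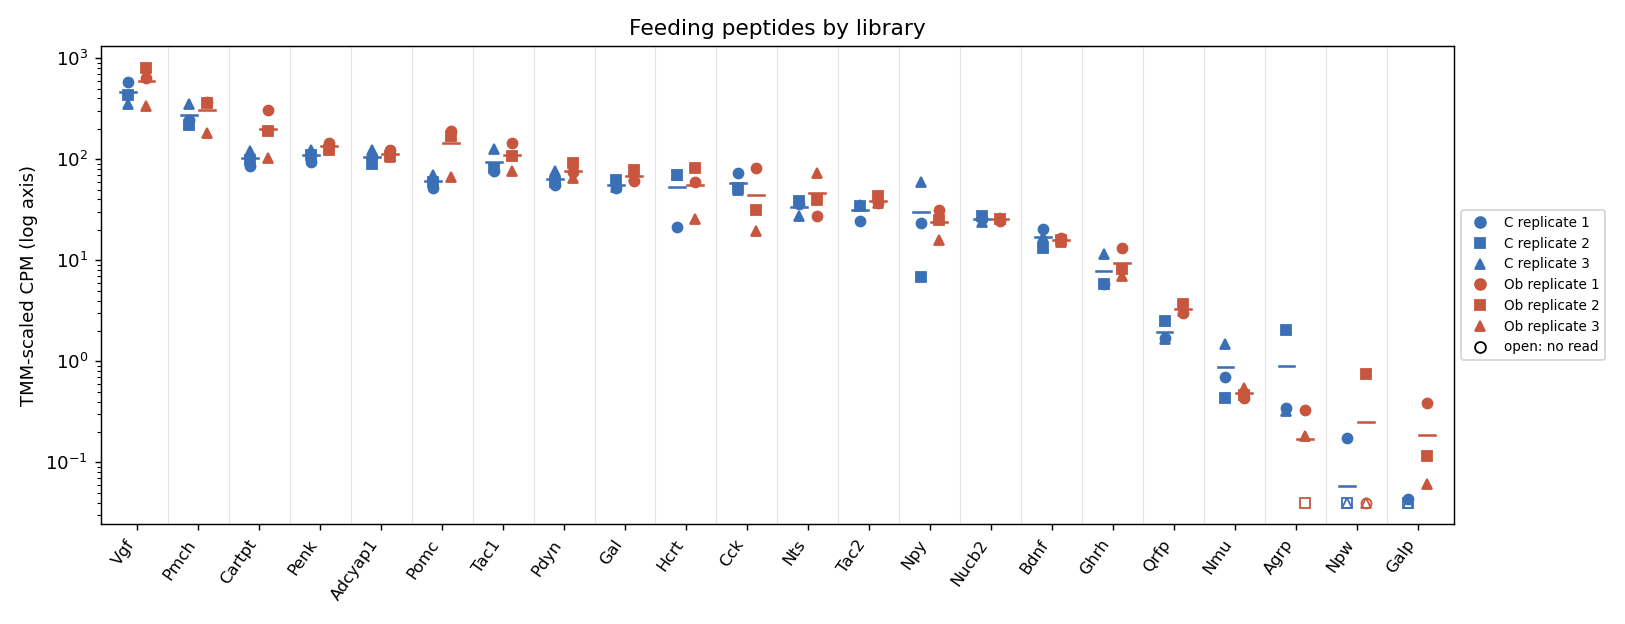
TMM-scaled CPM (y axis, log scale) of the 22 feeding peptides, ordered by their mean level, in the 3 C libraries (blue) and the 3 Ob libraries (red), with group means as lines and open symbols for libraries without a read. Pomc and Cartpt are high in Ob replicates 1 and 2 and at the level of C in Ob replicate 3.

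The list of magnocellular and releasing hormones, which also holds the dopamine transporter, gave 8 of 10 members higher in Ob (median 0.20). With RLE scaling 7 were higher. The transporter was the lowest member, with a log2FC of −0.90 (SE 0.43). Avp (vasopressin) had 463, 599 and 758 CPM in C and 860, 1532 and 538 CPM in Ob, a log2FC of 0.69 (SE 0.30), while Oxt (oxytocin) had 470, 709 and 538 CPM in C and 606, 768 and 344 CPM in Ob, a log2FC of 0.00 (SE 0.25). Without Ob replicate 2, Avp was at 0.20. Gnrh1, the releasing hormone of the reproductive axis, had 1.83, 2.90 and 1.11 CPM in C and 3.73, 2.42 and 8.14 CPM in Ob, a log2FC of 1.30 (SE 0.51), which was 0.69 without Ob replicate 3. Trh, which drives the thyroid axis, was at 0.30 (SE 0.21), Crh, which drives the stress axis, at −0.05 (SE 0.29) and Sst (somatostatin) at 0.11 (SE 0.25). Of 32 transcription factors of hypothalamic development and identity, 21 were higher (median 0.15). Bsx, a factor of Agrp and Npy neurons, had 10.61, 9.996 and 14.41 CPM in C and 25.3, 22.9 and 14.1 CPM in Ob, a log2FC of 0.83 (SE 0.27), and like Pomc it was at the level of C in Ob replicate 3. Hmx2, which acts in neurons with growth hormone-releasing hormone, had 3.52, 2.19 and 2.32 CPM in C and 4.55, 5.35 and 5.71 CPM in Ob, a log2FC of 0.94 (SE 0.36), with no overlap. Lhx9 had 10.001, 10.106 and 8.30 CPM in C and 1.75, 5.35 and 7.04 CPM in Ob, a log2FC of −1.02 (SE 0.38), again with no overlap.

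Receptors of feeding peptides were lower in Ob for 21 of 29 members, but by little (median −0.12), and 0 members had an unadjusted p under 0.05 or groups that did not overlap. Without C replicate 1 the median was −0.02, with 16 of 29 lower, and without Ob replicate 1 it was −0.05. Mc4r, the melanocortin receptor that curbs feeding, had a log2FC of −0.12 (SE 0.40), Glp1r, the receptor of glucagon-like peptide 1, one of −0.40 (SE 0.28) and Cckar, a cholecystokinin receptor, one of −0.60 (SE 0.29). Without C replicate 2 and Ob replicate 1, Glp1r was at −0.02 and Cckar at −0.33. For leptin and insulin signaling, 23 of 31 members were lower (median −0.12). An unadjusted p under 0.05 was reached by 1 (3.23%, against 1.99% of all genes). It was Gsk3b, an insulin-regulated kinase (log2FC −0.44, SE 0.20). Without Ob replicate 1 the median of this list was −0.02, with 18 of 31 lower, and without C replicate 1 it was −0.06. Lepr, the leptin receptor, had 3.57, 3.55 and 2.78 CPM in C and 0.110, 1.90 and 4.25 CPM in Ob, a log2FC of −0.69 (SE 0.59). Ob replicate 1 held almost none of it and Ob replicate 3 the most of all 6 libraries, and without Ob replicate 1 the log2FC was −0.10. Insr, the insulin receptor, was at −0.12 (SE 0.22). Socs3, which leptin induces and which blocks its receptor, had 3.65, 1.26 and 4.59 CPM in C and 5.04, 5.58 and 4.37 CPM in Ob, a log2FC of 0.63 (SE 0.41), which was 0.28 without C replicate 2.

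Inflammatory genes outside the interferon list were more mixed. The TNF and NF-κB list had 23 members higher in Ob and 18 lower, 41 in all (median 0.07). At an unadjusted p under 0.05 stood 4, all higher (9.76%, against 2.21% of all genes), and 0 without Ob replicate 1. Junb, an AP-1 subunit, had 21.4, 24.1 and 21.7 CPM in C and 52.6, 37.9 and 22.8 CPM in Ob, a log2FC of 0.76 (SE 0.27), and Cebpb, an acute-phase transcription factor, was at 0.87 (SE 0.35). The cytokine Lta had at most 0.391 CPM in C and 0.576 to 1.97 CPM in Ob (log2FC 2.00, SE 0.77). The chemokine Cxcl1 had 0, 0 and 0.0927 CPM in C and 1.26, 0.345 and 0.182 CPM in Ob. Both rest on few reads: Lta had 9, 4 and 6 in C and 36, 10 and 18 in Ob, and Cxcl1 had fewer. Nfkbia, an inhibitor that NF-κB induces, was at 0.56 (SE 0.40) and without Ob replicate 1 at −0.08. Of 21 complement genes 11 were higher (median 0.02). C1ra, a protease of the first complement component, had 0.391, 0.164 and 0.185 CPM in C and 1.096, 1.38 and 1.15 CPM in Ob. Its log2FC of 2.22 (SE 0.74) rests on few reads, 9, 3 and 4 in C and 20, 24 and 19 in Ob. C4b was at 0.58 (SE 0.32) and, without Ob replicate 2, at 0.18. Microglia genes were split evenly, 11 higher and 11 lower (median −0.01), with Cx3cr1 at −0.30 (SE 0.27), P2ry12 at −0.45 (SE 0.35) and Aif1 at 0.06 (SE 0.35). Without Ob replicate 1, Cx3cr1 was at −0.03 and P2ry12 at −0.11. Gfap, the filament of reactive astrocytes, had 246, 316 and 82.5 CPM in C and 243, 404 and 126 CPM in Ob, and astrocyte genes as a whole were low in C replicate 3 (mean deviation −0.96) and Ob replicate 3 (−0.38).

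The nuclear-encoded subunits of oxidative phosphorylation, the machinery by which mitochondria make ATP, were higher in Ob for 68 of 74 members (median 0.43). At an unadjusted p under 0.05 stood 16 (21.6%, against 2.21% of all genes), all higher. The libraries did not overlap for 4, all higher (5.41%), which is near the 4.2% of all genes. Most of the 74 genes were highest in Ob replicate 1. Ndufb11, a subunit of complex I, had 82.0, 75.9 and 80.5 CPM in C and 177, 106 and 84.6 CPM in Ob, a log2FC of 0.62 (SE 0.24). Uqcr11, of complex III, had 53.1, 35.5 and 53.0 CPM in C and 139, 55.5 and 51.8 CPM in Ob, a log2FC of 0.80 (SE 0.32). Without Ob replicate 1, Ndufb11 was at 0.27 and Uqcr11 at 0.20. The sum of the 74 genes was 9446 to 9886 CPM in C and 17190, 10860 and 9353 CPM in Ob, so that Ob replicate 1 stood alone. Without it the median was 0.10, with 57 of 74 members higher, and without C replicate 2 as well it was 0.05, with 48 of 74 higher. The 13 mitochondrially encoded genes were at a median of −0.08, with mt-Nd5 of complex I at −0.26 (SE 0.19). Cytosolic ribosomal proteins were higher in Ob for 62 of 77 members (median 0.25), among them Rps2 with 62.7, 61.6 and 72.6 CPM in C and 156, 99.9 and 75.7 CPM in Ob (log2FC 0.75, SE 0.24). Their median was 0.01 without Ob replicate 1, and −0.09 without C replicate 2 and Ob replicate 1.

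The difference between the groups moved with the length of genes. Exonic lengths came from GENCODE M21 by gene ID for 16796 of the 17656 genes with at least 1 CPM (95.1%). In the class with the shortest exons, of 5 classes of equal size (up to 1925 bases) the median log2FC was 0.20 and 68.6% of genes were higher in Ob, and in the class with the longest (7197 bases or more) it was −0.18 and 22.2% were higher. The median deviation of the shortest class was −0.13, −0.17 and 0.01 in C and 0.32, 0.06 and −0.02 in Ob. That of the longest class was 0.23, 0.05 and 0.01 in C and −0.24, −0.03 and 0.04 in Ob. The median length was 1737 bases for oxidative phosphorylation and 1781 bases for ribosomal proteins. With the median of each member's own length class taken off, a step added with the data in view, their medians were 0.26 and 0.11. The interferon and MHC class I list had a median length of 3504 bases and kept 0.44 of its 0.52, and the feeding peptides, with 1291 bases, had 0.09 in place of 0.29. What length does in these values was not tested further.

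Genes of neuronal excitability were lower in Ob more often than higher. Of 16 GABA-A receptor subunits, which form the main inhibitory receptor of the brain, 13 were lower (median −0.15). An unadjusted p under 0.05 was reached by 2 of the 16 (12.5%, against 1.99% of all genes), both lower. Gabrb2 had 47.1, 31.7 and 7.37 CPM in C and 1.37, 9.67 and 9.53 CPM in Ob, a log2FC of −2.08 (SE 0.58), where C replicate 3 lay within the range of Ob. Gabra4 had 60.2, 37.6 and 45.5 CPM in C and 29.9, 20.9 and 33.3 CPM in Ob, a log2FC of −0.77 (SE 0.24), with no overlap. Of 36 glutamate receptor genes 27 were lower (median −0.18), with Grin2b, an NMDA receptor subunit, at −0.65 (SE 0.27). Of 41 potassium channel genes 29 were lower (median −0.12), and 5 did not overlap (12.2%, against 4.03% of all genes), all lower. Kcnn3, a calcium-activated channel, had 49.6, 41.2 and 38.2 CPM in C and 19.7, 32.1 and 36.0 CPM in Ob (log2FC −0.56, SE 0.24), and Kcna4, a voltage-gated channel, 16.1, 16.4 and 13.6 CPM in C and 10.1, 11.6 and 9.60 CPM in Ob (−0.56, SE 0.24). These lists hold long genes, with median exonic lengths of 5999, 6010 and 5756 bases, and with the median of the length class taken off their medians were −0.08, −0.07 and −0.05. Without C replicate 1, in which the mean deviation of the 3 lists was highest (0.36, 0.28 and 0.40), the medians were −0.03, −0.09 and 0.01. General neuronal genes were lower for 14 of 20 (median −0.07), with Map2, a protein of dendrites, at −0.43 (SE 0.19), Gad2, an enzyme of GABA synthesis, at −0.54 (SE 0.21) and Snap25, of synaptic vesicle release, at −0.14 (SE 0.17).

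Genes that mark the thalamus, which borders the hypothalamus, had the lowest median of all lists, −0.49, with 18 of 20 members lower in Ob. At an unadjusted p under 0.05 stood 7 (35.0%, against 1.99% of all genes), all lower. The libraries did not overlap for 1 lower member (5.0%, against 4.03% of all genes) and 1 higher member (5.0%, against 4.2%), near those shares. Plekhg1 had 53.9, 25.7 and 17.9 CPM in C and 21.3, 12.2 and 11.1 CPM in Ob, a log2FC of −1.13 (SE 0.37). Tcf7l2, a transcription factor of thalamic neurons, had 93.1, 44.3 and 59.2 CPM in C and 62.7, 24.4 and 19.5 CPM in Ob (−0.88, SE 0.37), and Prkcd, a kinase abundant there, 94.7, 19.2 and 20.7 CPM in C and 43.9, 15.5 and 14.5 CPM in Ob (−0.87, SE 0.53). C replicate 1 held the most of all 3, Ob replicate 1 came next or near to it, and the groups overlapped. The mean deviation of the list was 0.82, −0.10 and 0.15 in C and 0.25, −0.64 and −0.49 in Ob, and the summed level 1257 to 1923 CPM in C and 1073 to 1524 CPM in Ob. Without C replicate 1 the median was −0.13, with 16 of 20 members lower, and without C replicate 2 and Ob replicate 1 it was −1.04, with 19 of 20 lower. Slc17a6, the glutamate transporter of thalamic and hypothalamic neurons, had 262, 203 and 216 CPM in C and 183, 156 and 169 CPM in Ob and did not overlap (log2FC −0.42, SE 0.18). How much neighboring tissue each dissection held was not tested. Cortical and hippocampal genes were lower for 19 of 27 (median −0.15), with Slc17a7, the glutamate transporter of cortex, at 29.1, 5.95 and 5.24 CPM in C and 12.2, 1.61 and 1.03 CPM in Ob.

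**Figure D4:**
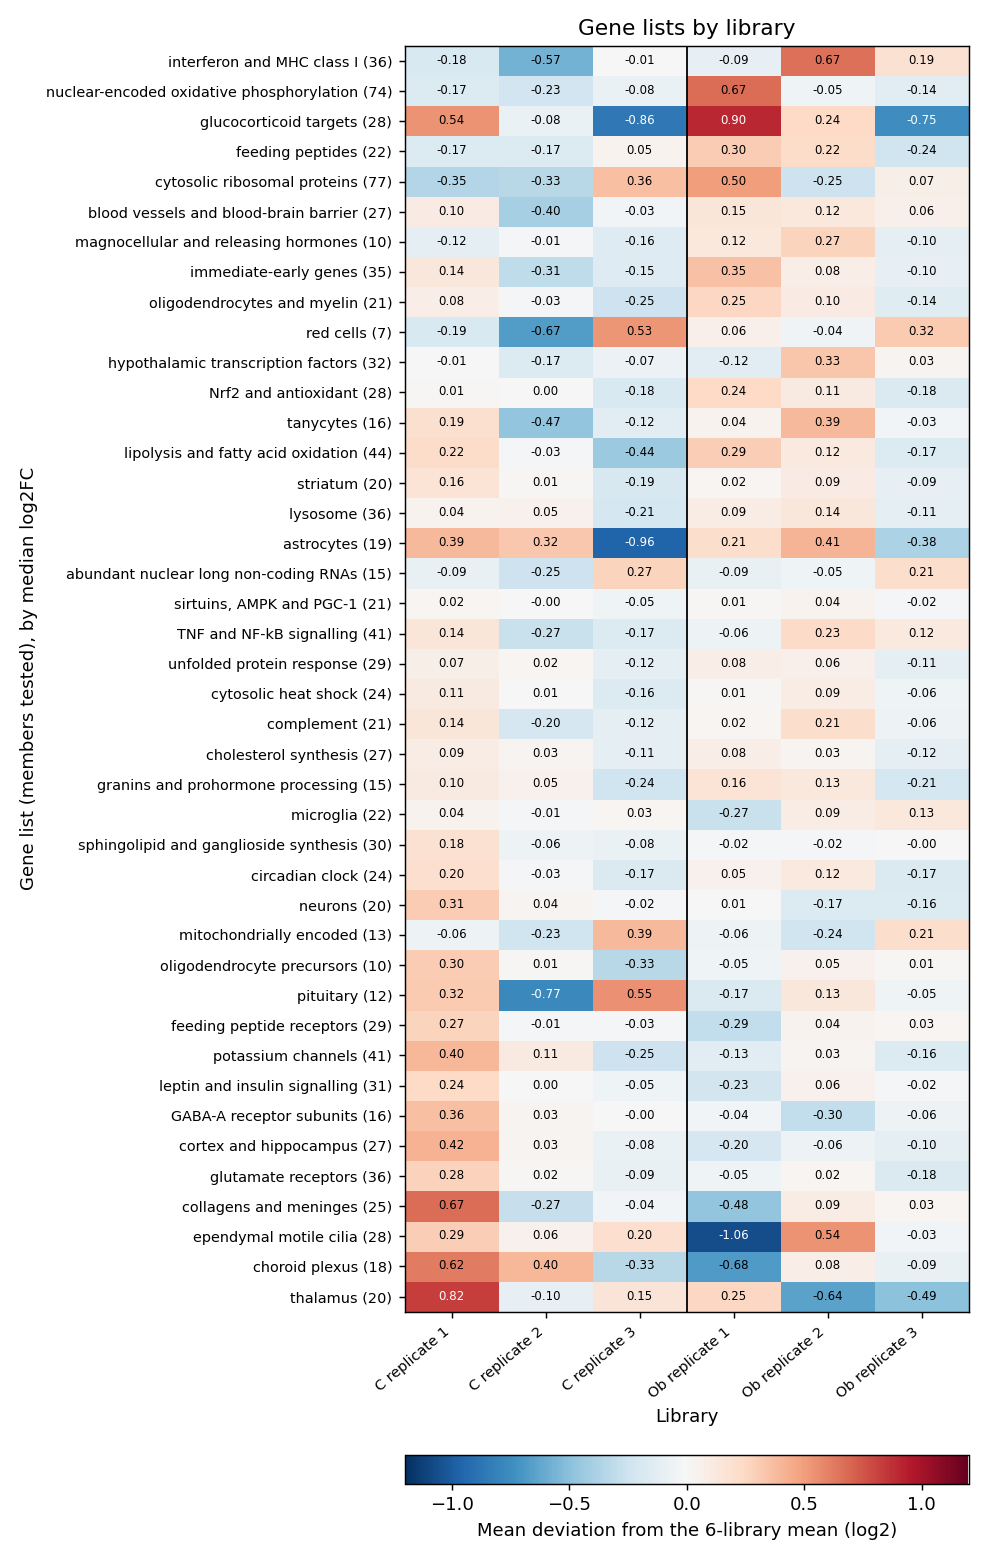
Mean deviation of the members of 42 gene lists from their own mean over the 6 libraries (color and printed value, log2 scale), with libraries in columns, C left of the line and Ob right of it, and lists in rows ordered by median log2FC. The largest deviation was in Ob replicate 1 for oxidative phosphorylation (0.67) and ependymal cilia (−1.06), and in C replicate 3 for astrocytes (−0.96). For the thalamus it was in C replicate 1 (0.82), with Ob replicates 2 and 3 at −0.64 and −0.49.

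Beyond the lists, the genes with a symbol, at least 1 CPM and no overlap between the groups numbered 709 higher and 681 lower in Ob. Among the 12 with the smallest p that were higher, Wfikkn1, a secreted protein that binds growth factors of the TGF-β family, had 0.522, 0.382 and 0.371 CPM in C and 3.84, 2.24 and 1.03 CPM in Ob, a log2FC of 2.47 (SE 0.67). With 1 library left out, its lowest log2FC was 1.94. Nenf, a secreted neurotrophic factor, had 71.9, 59.2 and 72.5 CPM in C and 201, 105 and 76.2 CPM in Ob (0.91, SE 0.29), which was 0.42 without Ob replicate 1. Fbxo6, which marks glycoproteins for degradation, had 17.2, 9.72 and 15.2 CPM in C and 33.3, 26.2 and 19.2 CPM in Ob (0.90, SE 0.27). Adssl1, an enzyme of AMP synthesis (0.74, SE 0.24), Ttc22 (1.33, SE 0.40), H2-Q7, H2-K1, H2-D1 and Rps2 were also among the 12, with the predicted gene Gm30122 and the pseudogene Sfta3-ps.

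Among the 12 lower genes, Grid2ip, a scaffold of the delta-2 glutamate receptor, had 17.3, 12.6 and 6.54 CPM in C and 3.18, 5.07 and 1.76 CPM in Ob, a log2FC of −1.86 (SE 0.42). Cntnap5b and Cntnap5c, adhesion proteins of the neurexin superfamily, were at −1.58 (SE 0.40) and −2.33 (SE 0.70). For Cntnap5b the values were 5.65, 7.32 and 4.77 CPM in C and 1.53, 1.44 and 2.98 CPM in Ob. Glra1, a glycine receptor subunit, had 2.65, 4.37 and 1.53 CPM in C and 0.110, 0.806 and 0.850 CPM in Ob (−2.26, SE 0.67), and Adcy1, a calcium-dependent adenylyl cyclase, 112, 66.5 and 46.2 CPM in C and 42.2, 37.1 and 37.4 CPM in Ob (−0.94, SE 0.27). Necab1, a neuronal calcium-binding protein, had 74.7, 46.2 and 45.2 CPM in C and 32.5, 25.1 and 32.1 CPM in Ob (−0.89, SE 0.24). In these 3 genes C replicate 1 or C replicate 2 was the highest library. Plcxd3 (−2.17, SE 0.57) and Plcxd2 (−0.77, SE 0.21), of the phospholipase C family, the kinase Hipk2 (−1.18, SE 0.32), the heat shock protein relative Hspa12a (−0.66, SE 0.20), Ankfn1 (−1.98, SE 0.55) and the predicted gene Gm43398 (−2.24, SE 0.45) completed the 12. Both sets of 12 were picked for their separation, so their lack of overlap is no finding.

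Genes of blood vessels and the blood-brain barrier were higher for 22 of 27 members (median 0.24). The libraries did not overlap for 5 of the 27 (18.5%, against 4.2% of all genes), all higher. Itm2a, a membrane protein of brain endothelium, had 30.2, 26.2 and 31.0 CPM in C and 47.1, 33.4 and 44.8 CPM in Ob (log2FC 0.52, SE 0.21), and Esam, an endothelial adhesion molecule, 7.96, 7.65 and 9.501 CPM in C and 15.2, 10.2 and 13.3 CPM in Ob (0.63, SE 0.27). The endothelial marker Pecam1 was at 0.02 (SE 0.32) and Cldn5, of tight junctions, at 0.28 (SE 0.37). Tjp1, also of tight junctions, was at −0.45 (SE 0.22). Without Ob replicate 3, 15 of the 27 vessel genes were higher (median 0.25). The median was 0.17 without C replicate 2, and 0.11 without C replicate 2 and Ob replicate 1. Motile cilia genes of the ependyma, which lines the ventricles, were lower for 19 of 28 (median −0.27) and lowest in Ob replicate 1, where Foxj1, their master regulator, had 5.32 CPM against 12.4 to 43.2 CPM elsewhere, and their median was 0.12 without that library. Tanycyte genes were higher for 12 of 16 (median 0.15), with Rax at 1.57, 2.90 and 2.64 CPM in C and 5.97, 6.27 and 2.37 CPM in Ob (1.07, SE 0.44). Of the 16, 0 had groups that did not overlap. Their median was 0.01 without Ob replicate 2, with 9 of 16 higher, and 0.05 without C replicate 2. Genes of the choroid plexus and of collagens and meninges were lower for 12 of 18 and 19 of 25 (medians −0.32 and −0.25), with the lowest deviations in Ob replicate 1. Their medians were −0.10 and −0.04 without Ob replicate 1, and −0.29 and −0.01 without C replicate 1. Of 12 pituitary genes 6 were higher and 6 lower (median −0.09). At an unadjusted p under 0.05 stood 2 higher (16.7%, against 2.21% of all genes) and 2 lower (16.7%, against 1.99%). The libraries did not overlap for 2, both higher (16.7%, against 4.2%). Among these, Pitx1 had few reads, 1, 0 and 0 in C and 5, 29 and 6 in Ob (5.11, SE 1.72). The 2 lower were Gh and Prl. Gh had 3.78, 0 and 8.62 CPM in C and 0, 0.691 and 0.789 CPM in Ob. Prl had 0.913, 0 and 4.68 CPM in C and 0, 0.115 and 0 CPM in Ob. Both were also at 0 in C replicate 2. Myelin genes were higher for 15 of 21 (median 0.16), with Mbp, of the myelin sheath, at 0.13 (SE 0.20), precursors of oligodendrocytes had a median of −0.08, striatal genes 0.10 and red cell genes 0.16.

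Glucocorticoid target genes were higher for 21 of 28 members (median 0.40), but varied more between mice than between groups, with mean deviations of 0.54, −0.08 and −0.86 in C and 0.90, 0.24 and −0.75 in Ob. Cdkn1a, a cell cycle inhibitor, had 16.6, 7.76 and 5.65 CPM in C and 48.6, 11.45 and 6.13 CPM in Ob, a log2FC of 1.14 (SE 0.57), and Fkbp5, a chaperone of the glucocorticoid receptor, was at 0.25 (SE 0.35). Without Ob replicate 1 the values were −0.18 and −0.19, and the median of the list was −0.15. Immediate-early genes had a median of 0.16, with Fos at 0.17 (SE 0.26). Among 24 clock genes (median −0.05), Ciart, a repressor in the clock, had 11.045, 8.85 and 11.26 CPM in C and 25.9, 18.015 and 12.5 CPM in Ob, a log2FC of 0.85 (SE 0.28), with no overlap, which was 0.46 without C replicate 2 and Ob replicate 1. The unfolded protein response (0.04), cytosolic heat shock (0.02), cholesterol synthesis (−0.01), granins and prohormone processing (−0.01), sphingolipid synthesis (−0.02), lysosome (0.09), TNF and NF-κB signaling and complement all had medians within 0.1 of 0. Lipolysis and fatty acid oxidation (0.13), sirtuins, AMPK and PGC-1 (0.07), Nrf2 and antioxidant genes (0.15) and abundant nuclear non-coding RNAs (0.08) were close to this as well. Within them, Ppargc1b, a coactivator of mitochondrial genes, had 3.61, 6.55 and 2.04 CPM in C and 1.59, 1.38 and 2.00 CPM in Ob, a log2FC of −1.27 (SE 0.50), and Gstp1, a glutathione transferase, 74.1, 66.7 and 89.9 CPM in C and 146, 103 and 92.2 CPM in Ob (0.56, SE 0.21). In both, the groups touched without overlap, C replicate 3 lying next to Ob replicate 3.

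**Figure D5:**
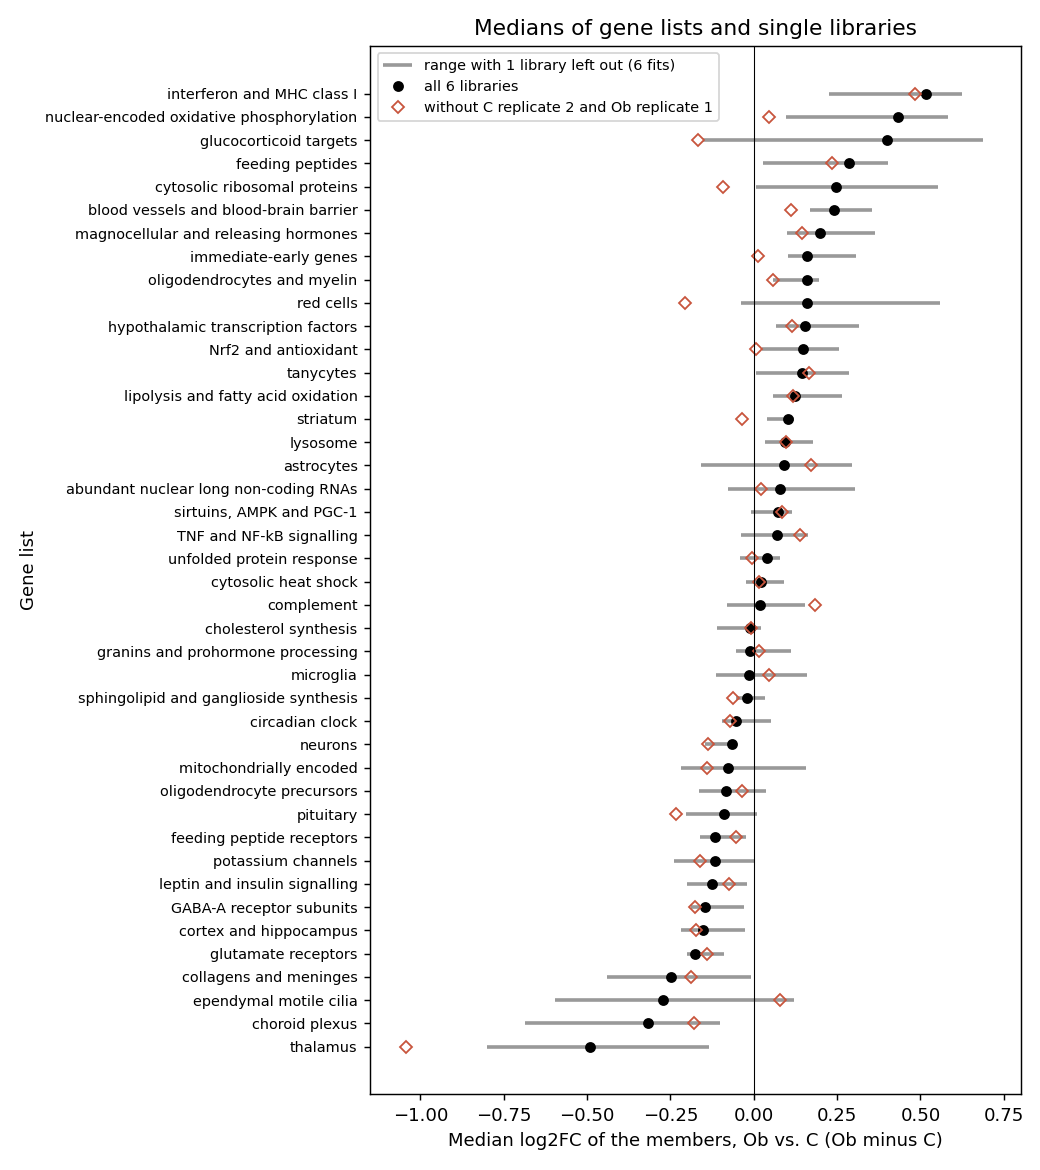
Median log2FC in Ob vs. C (x axis) of the 42 gene lists (y axis), over all 6 libraries (black points), with the range over the 6 fits that leave out 1 library (grey bars) and the value without C replicate 2 and Ob replicate 1 (red diamonds). The lowest value of the interferon and MHC class I genes is 0.23, whereas oxidative phosphorylation, glucocorticoid targets and ribosomal proteins approach or cross 0.

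Single libraries also held genes that no other library shared at that level. In Ob replicate 3, Lhx8, Lhx6 and Gbx1, transcription factors of forebrain interneurons, the choline transporter Slc5a7 and AI606473 were 2.58 to 4.72 times the next highest library (CPM plus 0.5), with Lhx8 at 2.39, 1.80 and 1.34 CPM in C and 0.712, 4.09 and 15.5 CPM in Ob. In Ob replicate 1 these were Klrg2, Prlh (prolactin-releasing hormone), Cebpd, Arl4d and Itgad, at 3.50 to 5.53 times, and in C replicate 1 Slc6a12, Fmod, Prg4, Itih2 and Zbtb16, at 2.95 to 3.79 times, of which Fmod and Prg4 are matrix proteins. In C replicate 2 Ttr, the transthyretin of the choroid plexus, was at 9.23 CPM against 2.96 CPM or less elsewhere. Ob replicate 2 led in Lars2, Gm12896, Gm12895, Gm15564 and Mir6236, at 2.25 to 4.26 times. Lars2 had 245, 1194 and 417 CPM in C and 1149, 3500 and 396 CPM in Ob, and ENSMUSG00000119584, which has no symbol in the reference, 1132, 6232 and 2408 CPM in C and 12122, 40913 and 1348 CPM in Ob. Both were high in the same 3 libraries, C replicate 2, Ob replicate 1 and Ob replicate 2, across the groups.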

How the data were processed

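Poly(A) RNA of whole hypothalamus was sequenced as stranded paired-end libraries. Per the study's methods, HISAT2 v2.0.5 was the aligner and featureCounts v1.5.0-p3 the counter. The submitters' processing notes give GRCm39 as the genome build. The authors deposited raw read counts per gene. No source used here states the gene annotation, whether counting used strand, or what was done with multi-mapping reads, so antisense partners, overlapping genes and near-identical copies are uncertain. Symbols were found for 51486 of 78334 gene IDs, which held 98% of reads.

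The counts of 3 C and 3 Ob libraries were scaled by TMM and tested with edgeR 4.0.16 (quasi-likelihood, Benjamini-Hochberg adjustment, R 4.3.3) in genes with at least 10 reads in total, after a test on simulated counts. Called means that the adjusted p was below 0.05 and the log2FC 1 or more, up or down. A list is described by counts and its median. The text names the 12 non-overlapping genes of smallest p per direction, up to 3 of smallest p and the most abundant of each list, fixed feeding, glial and stress genes and each library's leaders, and further members of lists chosen after their values were seen. Members and lists were chosen with earlier results of these data known. Alternatives covered scaling, filters, DESeq2 1.42.0, more libraries, a replicate block and left-out libraries. Sources describe the libraries as biological replicates, and p-values measure the spread between them. Some results are not reported here.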

Additional observations from a re-analysis of the deposited data

How the results depend on the processing

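No gene was called by edgeR with RLE or upper quartile scaling, the filterByExpr filter, 9 or 12 libraries or no minimum on the log2FC, nor by DESeq2. With genes of at least 1 read in total, 57 of 44897 were called. That fit pooled the spread of single genes completely (infinite prior degrees of freedom, 10.8 otherwise), and 51 of the 57, Pomc and Gabrb2 among them, had libraries that overlapped. By the unadjusted p with the same minimum log2FC, 672 genes passed. Genes higher in Ob at an unadjusted p under 0.05 numbered 422 with filterByExpr, 1098 with at least 1 read, 407 with 9 libraries and 259 without C replicate 2 and Ob replicate 1 (214 lower, with 6703 genes not overlapping between 2 and 2 libraries). With 1 library left out, 0 to 3 genes were called, 270 to 1516 were higher and 181 to 1552 lower at that p, and 4133 to 8355 did not overlap. The 3 called, all lower without C replicate 3 (adjusted p 0.0382 by edgeR), were Shc3, Aff2 and Gm7292, which were named after their values were seen.

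Same-numbered C and Ob libraries had correlated deviations of −0.0157, 0.142 and 0.171, so the numbers were not taken as a pairing. With a replicate block 0 genes were called, with 679 higher and 633 lower at an unadjusted p under 0.05.

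Log2FCs of named genes changed sign by more than their SE only when libraries were left out, and the cause was not tested. Their ranges over these fits follow, grouped by the library that turned the sign. For C replicate 1 they were Prkcd (−1.94 to 0.31), Prg4 (−1.75 to 0.95) and Slc6a12 (−2.21 to 0.14). For C replicate 3 they were Npy (−1.04 to 0.66), Nr5a1 (−0.28 to 0.35) and Mx1 (−0.70 to 1.43). For Ob replicate 1, alone or with C replicate 2, they were Sst (−0.21 to 0.38), Pmch (−0.13 to 0.43), Mbp (−0.08 to 0.38), Cdkn1a (−0.34 to 1.73), Fkbp5 (−0.37 to 0.72), Arl4d (−0.29 to 1.58), Cebpd (−0.16 to 2.67), Foxj1 (−1.44 to 0.27) and Nfkbia (−0.08 to 0.89). For Ob replicate 2 they were Otp (−0.14 to 0.28), Oxt (−0.27 to 0.26), Gfap (−0.22 to 0.69) and Mir6236 (−0.21 to 3.03). For Ob replicate 3 they were Gbx1 (−0.37 to 2.82), Lhx6 (−0.27 to 1.28), Slc5a7 (−0.03 to 2.03), AI606473 (−0.25 to 2.42) and Cldn5 (−0.13 to 0.89). The median of microglia genes ran from −0.11 to 0.16 and that of sirtuins, AMPK and PGC-1 from −0.01 to 0.12.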

Other observations

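In 6 further libraries of obese mice, which had also been treated, levels were as follows, in CPM of all counted reads without TMM scaling. H2-K1 ran from 17.7 to 39.3 CPM with a median of 24.4 CPM, against 22.3 to 28.6 CPM in C and 34.6 to 45.0 CPM in Ob. H2-D1 ran from 39.6 to 76.8 CPM with a median of 52.8 CPM, against 44.8 to 53.6 CPM in C and 61.6 to 85.3 CPM in Ob. B2m ran from 49.1 to 73.9 CPM with a median of 61.6 CPM, against 50.4 to 62.2 CPM in C and 73.1 to 79.7 CPM in Ob. Pomc ran from 2.53 to 166 CPM with a median of 54.3 CPM, against 50.8 to 72.6 CPM in C and 70.4 to 180 CPM in Ob. These libraries come from 3 treatments, resveratrol, aged garlic extract and curcumin, and the values were not tested.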
